A study of Mus musculus with 18 samples.

Results

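Microglia are the resident macrophages of the retina, and 35 genes that mark them, or mark macrophages and other myeloid cells more widely, are described here in whole mouse retinas after crush of the optic nerve. The genes were taken from a list by their symbols, as 8 homeostatic microglial genes, 16 pan-myeloid genes and 11 genes of activated or recruited myeloid cells, with complement genes left out. Of the 35 genes, 34 were on the array, with 44 probes. No probe was paired with Cd68, a lysosomal glycoprotein of macrophages. Of the 34 genes, 31 were bright enough to test, out of 25131 tested features in all, of which 16793 are genes with a symbol and the rest single probes with none. All 25131 are called genes below, for short. All 8 homeostatic genes, 15 of 16 pan-myeloid genes and 8 of 11 activation genes were tested. Spi1, which encodes the myeloid transcription factor PU.1, was above background on 0 of 17 arrays. Cybb, the catalytic subunit of the phagocyte NADPH oxidase, and C5ar1, a receptor for a complement fragment, were each above background on 2 arrays.

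All mice carried floxed alleles of DLK (Map3k12), a kinase that relays axon injury to the neuronal nucleus, and all received tamoxifen at 10 to 12 weeks of age. Cre-positive mice also carried a Cre-ERT transgene under the CAG promoter, which is active in many tissues and is not specific to neurons or microglia. Per the labels, a small amount of DLK protein remained after tamoxifen and varied between animals, and Cre-negative littermates were the controls. RNA of whole retinas, collected 3 days after crush, was labelled with Cy5 and hybridised against a universal mouse reference RNA labelled with Cy3. The groups were 5 Cre-positive crushed, 5 Cre-positive uncrushed, 3 Cre-negative crushed and 4 Cre-negative uncrushed retinas. The uninjured eye served as the control, so crushed and uncrushed retinas may come from the same animals, but the labels do not tie retinas to animals. The p-values therefore measure only the spread between these samples. For 1 further Cre-negative array the title and the description disagreed on whether the nerve was crushed, and it was left out of all groups. Levels below are log2 ratios of Cy5 over Cy3 of one probe per gene, so they can be compared between arrays but not between genes.

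Homeostatic microglia survey the tissue with motile processes and express a characteristic set of surface receptors, of which several sense nucleotides or the chemokine fractalkine. After injury of the nerve or its neurons, microglia are known to proliferate, to retract their processes and to change these receptors, with a loss of homeostatic transcripts and a gain of phagocytic and lysosomal ones in many disease models. In bulk retina fewer cells of a type and less RNA per cell cannot be told apart, and the same holds for more cells and more RNA per cell. PU.1 and IRF8 are transcription factors that maintain the lineage, and PU.1 binds a purine-rich site with the core GAGGAA.

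The promoters shown are those of Ctss and Aif1, which were called after crush in both genotypes and hold 2 matches and 1 match, and of the homeostatic gene P2ry12, which was not called and holds no match. Each window runs from 250 bases before to 50 bases after the transcription start in RefSeq on GRCm38.p6, is 300 bases long, and is printed 5′ to 3′ on the strand of the gene. Capitals mark GAGGAA or its reverse complement TTCCTC. The windows are Ctss at chr3:95526536-95526835 on the plus strand, Aif1 at chr17:35176003-35176302 on the minus strand and P2ry12 at chr3:59262936-59263235 on the minus strand.
Ctss: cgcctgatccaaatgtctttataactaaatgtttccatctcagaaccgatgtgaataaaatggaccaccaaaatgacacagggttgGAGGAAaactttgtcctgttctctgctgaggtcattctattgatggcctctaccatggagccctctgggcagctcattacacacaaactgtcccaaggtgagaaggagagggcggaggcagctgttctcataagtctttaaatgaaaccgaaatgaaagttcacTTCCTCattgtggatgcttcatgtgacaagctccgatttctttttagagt
Aif1: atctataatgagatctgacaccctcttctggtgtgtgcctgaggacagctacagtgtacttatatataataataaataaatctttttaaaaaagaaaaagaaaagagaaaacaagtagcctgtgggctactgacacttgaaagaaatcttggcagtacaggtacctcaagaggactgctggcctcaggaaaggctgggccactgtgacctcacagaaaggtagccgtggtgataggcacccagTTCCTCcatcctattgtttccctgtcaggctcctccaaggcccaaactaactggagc
P2ry12: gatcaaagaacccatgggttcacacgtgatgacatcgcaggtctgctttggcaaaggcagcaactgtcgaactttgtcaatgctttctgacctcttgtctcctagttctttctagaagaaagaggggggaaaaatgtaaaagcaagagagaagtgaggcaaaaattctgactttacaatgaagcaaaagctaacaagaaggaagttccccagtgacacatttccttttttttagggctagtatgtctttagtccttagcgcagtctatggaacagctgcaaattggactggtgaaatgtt
Of 30 RefSeq windows found for 27 of the listed genes, 15 held GAGGAA on either strand, or 50% of them, against 28.3% of all 32851 windows. Some genes have more than 1 window, and the windows of a gene can overlap. Counted by gene, 14 of 27 listed genes held the motif, against 8446 of 27025 genes in all. The share was 50% in the homeostatic, the pan-myeloid and the activation windows alike, from 3 of 6, 8 of 16 and 4 of 8 windows. The 16 pan-myeloid windows belong to 13 genes, of which 7 held the motif. The longer GAGGAAGT, which contains GAGGAA, was in 2 of 30 windows, those of Cd53 and Ctss, against 3.2% of all windows. The composite motif of PU.1 and an IRF factor was in 3 of 30 windows, those of Fcgr2b, Cd68 and Cybb, against 2.72% of all windows. Matches of GAGGAA did not follow the calls: Ly86 and Irf8, called in both genotypes, held 0 in their windows, while Itgam held 3 and Cd53 2, and P2ry13, Fcrls and Siglech held 1 each without being called. A match is a description of these letters and not a site.

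Between 68% and 76.2% of probes were well above background in Cy5 on each array, no Cy5 spot was saturated, and median spot intensities lay between 240 and 297 units, with local backgrounds between 72.5 and 84. Map3k12 averaged 2.03 in Cre-positive crushed and 1.996 in Cre-positive uncrushed retinas, against 2.50 in Cre-negative crushed and 2.43 in Cre-negative uncrushed retinas. Cre-positive crushed replicate 5 held the most lens transcripts, with a summed Cy5 signal of 24932 over the lens markers, against 8500 to 13357 on the other arrays. Cre-positive uncrushed replicate 4 held the most cornea transcripts, with a summed signal of 99240, against 4290 to 11370 on the others. Counts of called genes are given with and without these arrays. Uncrushed retinas were hybridised at odd positions on each slide and crushed retinas at even ones, so position and crush cannot be told apart.

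In Cre-positive retinas 13 of the 31 tested genes rose after crush and 0 fell, at a Benjamini-Hochberg adjusted p under 0.05 in limma. That is 41.9% of the genes, where 0.688% of all 25131 genes rose and 0.0875% fell. In Cre-negative retinas 6 of 31 rose, or 19.4%, where 1.36% of all genes rose and 0.82% fell, and again 0 of the 31 fell. All 6 were among the 13. Both counts depended on the arrays used. With the array of disagreeing labels counted as uncrushed, as its title has it, limma called 0 of the 31 in either genotype. Of all genes it then called 0.0398% in Cre-positive and 0.286% in Cre-negative retinas, in either direction. With only the groups of the contrast in the fit it called 4 of the 31 in Cre-positive and 14 in Cre-negative retinas. Of all genes it then called 0.207% and 3.04%, beside 0.776% and 2.18% in the reported fit. Every crushed array was above every uncrushed array for 12 genes in Cre-positive retinas, where 1.52% of all genes did so, and for 20 genes in Cre-negative retinas, where 8.83% did so. An unadjusted p under 0.05 was found for 18 of the 31 genes in Cre-positive retinas, or 58.1%, beside 9.55% of all genes, and for 19 in Cre-negative retinas, or 61.3%, beside 13.4% of all genes. Estimates were positive for 29 of 31 genes in Cre-positive and 28 of 31 in Cre-negative retinas, and their medians were 0.19 and 0.28 on the log2 scale, beside medians of 0.00046 and 0.0015 over all genes. The 2 crush comparisons share no array, but they share the estimate of the spread between arrays.

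**Figure D1:**
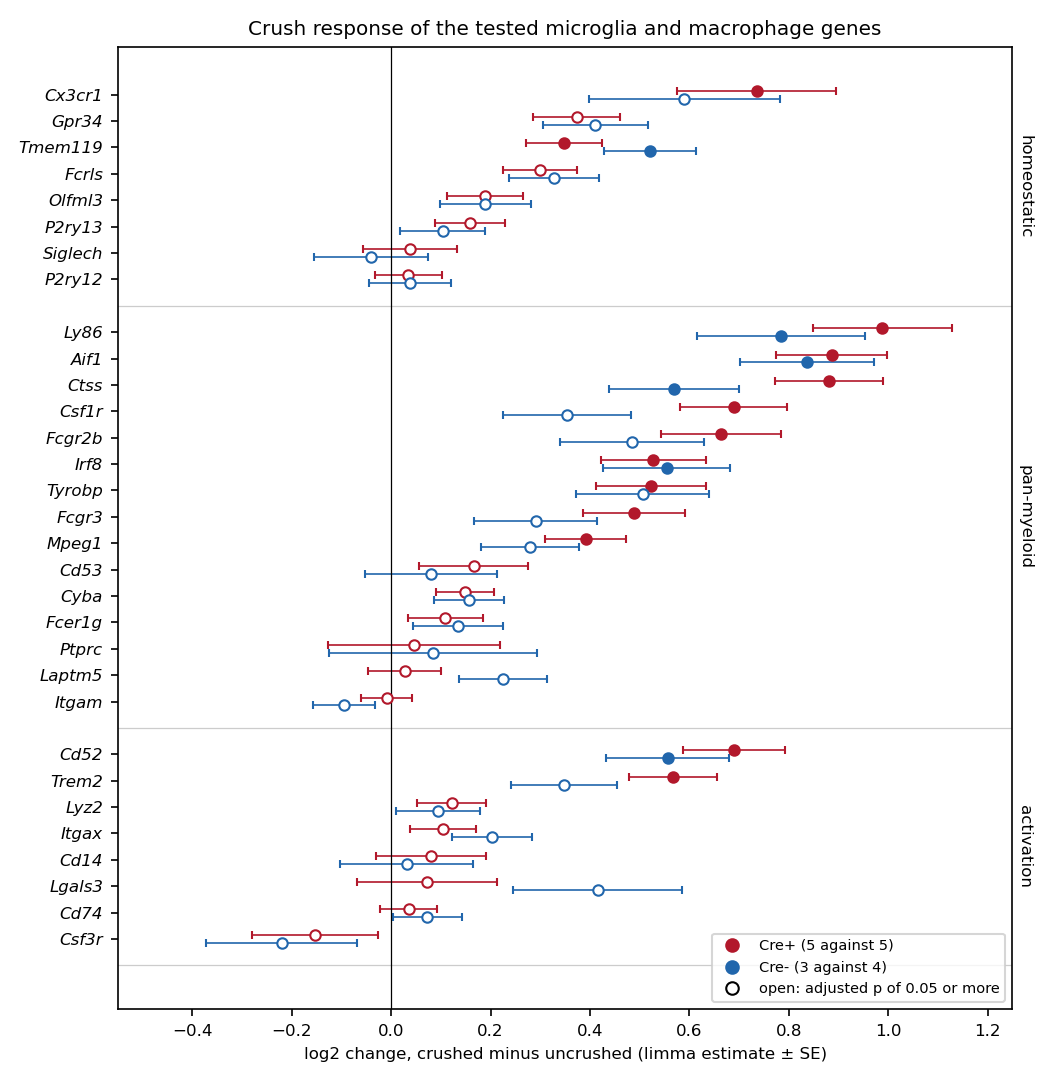
limma log2 change after crush, with its standard error, for the 31 tested genes by class, in Cre-positive and Cre-negative retinas. Filled points passed the adjusted p threshold, 13 in Cre-positive and 6 in Cre-negative retinas, and all of these lie to the right of 0.

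Among homeostatic genes, 2 of 8 rose in Cre-positive and 1 of 8 in Cre-negative retinas. Tmem119, a membrane protein used as a microglial marker, had log2 ratios of -1.78, -1.75, -1.59, -1.79 and -1.37 in Cre-positive crushed retinas, against -2.02, -2.10, -1.97, -1.91 and -2.02 in Cre-positive uncrushed ones. It had -1.48, -1.60 and -1.75 in Cre-negative crushed retinas, against -2.18, -2.23, -2.07 and -2.05 in Cre-negative uncrushed ones. Every crushed array was above every uncrushed array of the same genotype. The change was 0.35 ± 0.08 (log2, SE, 1.27-fold, limma adjusted p 0.041) in Cre-positive and 0.52 ± 0.09 (log2, SE, 1.44-fold, limma adjusted p 0.0032) in Cre-negative retinas.

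Cx3cr1, the fractalkine receptor, had 3.67, 3.67, 4.45, 3.73 and 4.44 in Cre-positive crushed retinas, against 3.64, 2.97, 3.35, 3.24 and 3.08 in Cre-positive uncrushed ones. It had 3.71, 3.42 and 3.66 in Cre-negative crushed retinas, against 2.88, 3.03, 2.92 and 3.21 in Cre-negative uncrushed ones. The groups did not overlap in either genotype, although the highest Cre-positive uncrushed array came close to the lowest crushed one, and crushed replicates 3 and 5 stood highest. The change was 0.74 ± 0.16 (log2, SE, 1.66-fold, limma adjusted p 0.038) in Cre-positive retinas, and in Cre-negative retinas a change of 0.59 ± 0.19 (limma adjusted p 0.15) was not called. The Cre-positive calls of Tmem119 and Cx3cr1 were the least settled, since each was kept in 18 of 34 alternatives. A second Cx3cr1 probe, above background on 14 arrays, gave 0.11 in Cre-positive and 0.01 in Cre-negative retinas.

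The purinergic receptor P2ry12, by which microglia sense extracellular nucleotides, had 0.59, 0.62, 0.67, 0.78 and 0.79 in Cre-positive crushed retinas, against 0.53, 0.63, 0.89, 0.59 and 0.64 in Cre-positive uncrushed ones. It had 0.70, 0.73 and 0.50 in Cre-negative crushed retinas, against 0.68, 0.62, 0.61 and 0.52 in Cre-negative uncrushed ones. The groups overlapped in both genotypes. The estimates were 0.03 with an interval of -0.11 to 0.18 in Cre-positive and 0.04 with an interval of -0.13 to 0.21 in Cre-negative retinas (95% intervals, limma). The related nucleotide receptor P2ry13 had 0.27, 0.40, 0.30, 0.51 and 0.67 in Cre-positive crushed retinas, against 0.31, 0.23, 0.34, 0.20 and 0.26 in Cre-positive uncrushed ones. P2ry13 had 0.44, 0.21 and 0.42 in Cre-negative crushed retinas, against 0.18, 0.25, 0.23 and 0.36 in Cre-negative uncrushed ones. P2ry13 was dim, above background on 4 of 5, 2 of 5, 2 of 3 and 0 of 4 arrays of those groups in that order, and the groups overlapped. limma gave 0.16 ± 0.07 (limma adjusted p 0.49) in Cre-positive and 0.10 ± 0.09 (limma adjusted p 0.67) in Cre-negative retinas.

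Siglech, a sialic acid-binding lectin of microglia, had 2.44, 2.67, 2.46, 2.69 and 2.50 in Cre-positive crushed retinas, against 2.54, 2.59, 2.30, 2.74 and 2.39 in Cre-positive uncrushed ones. It had 2.56, 2.44 and 2.82 in Cre-negative crushed retinas, against 2.62, 2.73, 2.42 and 2.82 in Cre-negative uncrushed ones. The groups overlapped in both genotypes, with estimates of 0.04 with an interval of -0.16 to 0.24 and -0.04 with an interval of -0.28 to 0.20 (95% intervals, limma). These values come from a very bright probe, with Cy5 signals of 204036 to 380560 intensity units, and whether it measures Siglech was not tested. The second Siglech probe, at 106 to 218 units, gave changes of 0.09 in Cre-positive and 0.05 in Cre-negative retinas (limma adjusted p 0.79 and 0.9).

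Gpr34, a lysophosphatidylserine receptor, had 1.44, 1.75, 1.59, 1.90 and 1.72 in Cre-positive crushed retinas, against 1.31, 1.47, 1.36, 1.30 and 1.09 in Cre-positive uncrushed ones. It had 1.64, 1.79 and 1.73 in Cre-negative crushed retinas, against 1.12, 1.36, 1.24 and 1.52 in Cre-negative uncrushed ones. The Cre-negative groups did not overlap, and in Cre-positive retinas 1 crushed array lay within the uncrushed range. Neither difference passed the threshold in limma, with 0.37 ± 0.09 (limma adjusted p 0.06) in Cre-positive and 0.41 ± 0.11 (limma adjusted p 0.053) in Cre-negative retinas.

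Fcrls, an Fc receptor-like scavenger protein found on mouse microglia, had 1.07, 1.33, 0.94, 1.10 and 1.39 in Cre-positive crushed retinas, against 0.83, 0.83, 0.83, 0.89 and 0.95 in Cre-positive uncrushed ones. It had 1.01, 1.18 and 1.10 in Cre-negative crushed retinas, against 0.89, 0.71, 0.68 and 0.81 in Cre-negative uncrushed ones. The lowest Cre-positive crushed array sat just below the highest uncrushed one, and the Cre-negative groups did not overlap. The estimates were 0.30 ± 0.07 (limma adjusted p 0.078) in Cre-positive and 0.33 ± 0.09 (limma adjusted p 0.071) in Cre-negative retinas, neither called by limma. The secreted glycoprotein Olfml3 had -1.35, -1.06, -1.29, -1.15 and -1.06 in Cre-positive crushed retinas, against -1.55, -1.38, -1.21, -1.42 and -1.29 in Cre-positive uncrushed ones. Olfml3 had -1.18, -1.19 and -1.23 in Cre-negative crushed retinas, against -1.29, -1.51, -1.25 and -1.52 in Cre-negative uncrushed ones. The Cre-positive groups overlapped and the Cre-negative ones did not. limma gave 0.19 ± 0.08 (limma adjusted p 0.42) and 0.19 ± 0.09 (limma adjusted p 0.38) for Olfml3, and a second probe gave 0.04 and 0.03.

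**Figure D2:**
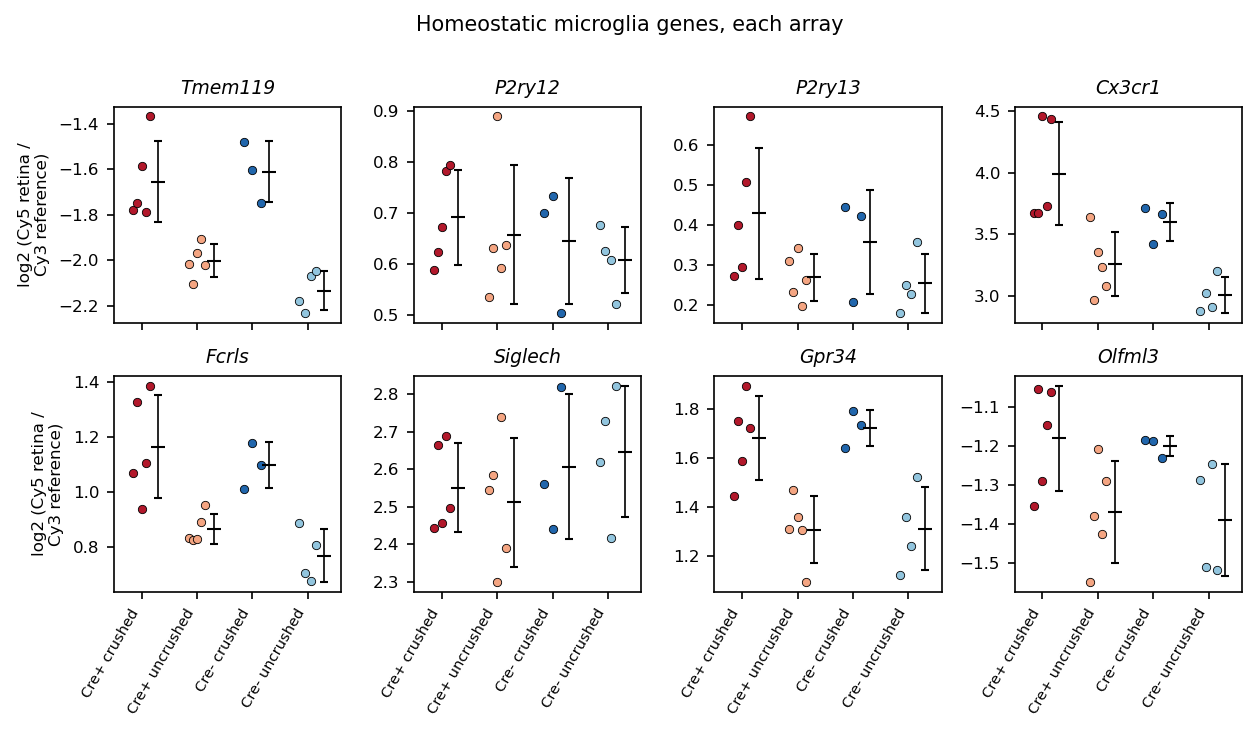
Log2 ratio of Cy5 over Cy3 of the 8 homeostatic genes on each array, with the group mean and SD, for Cre-positive crushed, Cre-positive uncrushed, Cre-negative crushed and Cre-negative uncrushed retinas. Tmem119 and Cx3cr1 separate crushed from uncrushed arrays in both genotypes, while P2ry12 and Siglech overlap in all groups.

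Pan-myeloid genes held most of the calls, with 9 of 15 in Cre-positive and 4 of 15 in Cre-negative retinas. Aif1, the calcium-binding protein IBA1 that is a standard stain for microglia, had -0.13, 0.10, 0.22, 0.08 and 0.71 in Cre-positive crushed retinas, against -0.51, -0.77, -0.60, -0.75 and -0.83 in Cre-positive uncrushed ones. It had -0.11, -0.21 and -0.11 in Cre-negative crushed retinas, against -0.89, -1.12, -0.99 and -0.92 in Cre-negative uncrushed ones. The groups lay well apart in both genotypes, and Cre-positive crushed replicate 5 was the highest array. The change was 0.89 ± 0.11 (log2, SE, 1.85-fold, limma adjusted p 0.00053) in Cre-positive and 0.84 ± 0.13 (log2, SE, 1.79-fold, limma adjusted p 0.0013) in Cre-negative retinas.

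Ctss, the lysosomal protease cathepsin S, had -1.46, -0.89, -1.08, -1.17 and -0.61 in Cre-positive crushed retinas, against -1.76, -2.02, -1.94, -2.03 and -1.88 in Cre-positive uncrushed ones. It had -1.50, -1.54 and -1.61 in Cre-negative crushed retinas, against -2.14, -2.12, -2.19 and -2.02 in Cre-negative uncrushed ones. Crushed arrays were above all uncrushed ones in both genotypes. The change was 0.88 ± 0.11 (log2, SE, 1.84-fold, limma adjusted p 0.00042) in Cre-positive and 0.57 ± 0.13 (log2, SE, 1.48-fold, limma adjusted p 0.026) in Cre-negative retinas. Ly86, the MD-1 partner of a Toll-like receptor homologue, had 0.25, 0.77, 0.08, 0.35 and 1.12 in Cre-positive crushed retinas, against -0.47, -0.40, -0.56, -0.49 and -0.44 in Cre-positive uncrushed ones. Ly86 had 0.26, 0.08 and 0.09 in Cre-negative crushed retinas, against -0.75, -0.73, -0.45 and -0.63 in Cre-negative uncrushed ones. The crushed groups stood apart from the uncrushed ones in both genotypes, and the Cre-positive crushed arrays spread most, from replicate 3 at the bottom to replicate 5 at the top. The change was 0.99 ± 0.14 (log2, SE, 1.98-fold, limma adjusted p 0.0013) in Cre-positive and 0.78 ± 0.17 (log2, SE, 1.72-fold, limma adjusted p 0.016) in Cre-negative retinas.

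Irf8, which encodes a transcription factor of the myeloid lineage, had -0.91, -0.88, -0.83, -0.89 and -0.24 in Cre-positive crushed retinas, against -1.20, -1.53, -1.11, -1.23 and -1.31 in Cre-positive uncrushed ones. It had -0.83, -0.84 and -0.78 in Cre-negative crushed retinas, against -1.40, -1.39, -1.31 and -1.38 in Cre-negative uncrushed ones. In both genotypes the groups did not overlap, and apart from replicate 5 the Cre-positive crushed arrays lay close together. The change was 0.53 ± 0.11 (log2, SE, 1.44-fold, limma adjusted p 0.024) in Cre-positive and 0.55 ± 0.13 (log2, SE, 1.47-fold, limma adjusted p 0.026) in Cre-negative retinas.

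The remaining pan-myeloid calls were made in Cre-positive retinas. Csf1r, the receptor for the growth factors CSF1 and IL-34 on which microglia depend, had -1.08, -0.64, -0.47, -0.79 and -0.24 in Cre-positive crushed retinas, against -1.18, -1.40, -1.33, -1.45 and -1.31 in Cre-positive uncrushed ones. It had -1.17, -1.13 and -1.13 in Cre-negative crushed retinas, against -1.49, -1.51, -1.45 and -1.53 in Cre-negative uncrushed ones. Groups of the same genotype did not overlap, and the Cre-negative groups were tight. The change was 0.69 ± 0.11 (log2, SE, 1.61-fold, limma adjusted p 0.0029) in Cre-positive retinas, and 0.35 ± 0.13 (limma adjusted p 0.22) in Cre-negative retinas was not called. The 2 other Csf1r probes, above background on all 17 arrays, gave 0.04 and 0.12 on one probe and -0.04 and -0.03 on the other in Cre-positive and Cre-negative retinas. With the mean over all its probes, the Csf1r change in Cre-positive retinas was 0.23 (limma adjusted p 0.082).

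Tyrobp, the signalling adaptor DAP12, had -1.67, -1.33, -1.57, -1.34 and -0.87 in Cre-positive crushed retinas, against -1.76, -1.94, -1.75, -2.02 and -1.92 in Cre-positive uncrushed ones. It had -1.47, -1.53 and -1.70 in Cre-negative crushed retinas, against -2.02, -2.20, -2.01 and -2.05 in Cre-negative uncrushed ones. The groups did not overlap in either genotype, and Cre-positive crushed replicate 1 was the nearest to the uncrushed arrays. The change was 0.52 ± 0.11 (log2, SE, 1.44-fold, limma adjusted p 0.033) in Cre-positive retinas, and 0.51 ± 0.13 (limma adjusted p 0.058) in Cre-negative retinas missed the threshold. Mpeg1, a pore-forming protein of phagocytes, had -2.03, -1.87, -1.88, -1.74 and -1.53 in Cre-positive crushed retinas, against -2.19, -2.22, -2.21, -2.20 and -2.19 in Cre-positive uncrushed ones. Mpeg1 had -2.12, -1.84 and -2.02 in Cre-negative crushed retinas, against -2.21, -2.46, -2.12 and -2.30 in Cre-negative uncrushed ones. The Cre-positive uncrushed arrays were nearly identical and lay below all crushed ones, and in Cre-negative retinas the groups nearly touched. The change was 0.39 ± 0.08 (log2, SE, 1.31-fold, limma adjusted p 0.03) in Cre-positive retinas, and 0.28 ± 0.10 (limma adjusted p 0.19) in Cre-negative retinas was not called. Averaged with a second probe that was above background on 0 arrays, it was 0.21 (limma adjusted p 0.13).

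The low-affinity IgG receptors Fcgr3, which activates, and Fcgr2b, which inhibits, were both called in Cre-positive retinas. Fcgr3 had -1.62, -1.24, -1.29, -1.32 and -0.86 in Cre-positive crushed retinas, against -1.62, -1.93, -1.71, -1.73 and -1.79 in Cre-positive uncrushed ones. It had -1.49, -1.67 and -1.61 in Cre-negative crushed retinas, against -1.83, -1.84, -2.05 and -1.80 in Cre-negative uncrushed ones. Its lowest Cre-positive crushed array was level with the top of the uncrushed range, which made it the only one of the 13 called genes whose Cre-positive groups met. Fcgr2b had -3.08, -2.51, -2.77, -2.90 and -2.19 in Cre-positive crushed retinas, against -3.17, -3.50, -3.32, -3.39 and -3.38 in Cre-positive uncrushed ones. It had -2.96, -2.94 and -3.15 in Cre-negative crushed retinas, against -3.52, -3.58, -3.41 and -3.49 in Cre-negative uncrushed ones. Its groups did not overlap in either genotype. The change in Cre-positive retinas was 0.49 ± 0.10 (log2, SE, 1.40-fold, limma adjusted p 0.03) for Fcgr3 and 0.66 ± 0.12 (log2, SE, 1.58-fold, limma adjusted p 0.012) for Fcgr2b. In Cre-negative retinas 0.29 ± 0.12 (limma adjusted p 0.3) and 0.48 ± 0.15 (limma adjusted p 0.11) were not called.

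The other 6 tested pan-myeloid genes were not called in either genotype. They were the integrin Itgam (CD11b), the tetraspanin Cd53, the phosphatase Ptprc (CD45), the lysosomal protein Laptm5, the Fc receptor chain Fcer1g and the oxidase subunit Cyba. Their estimates ran from -0.01 for Itgam to 0.17 for Cd53 in Cre-positive retinas and from -0.09 for Itgam to 0.22 for Laptm5 in Cre-negative retinas. The Itgam value comes from a bright probe, at 22566 to 33727 intensity units, while other Itgam probes, at 71 to 412 units, gave -0.00059 in Cre-positive and 0.03 in Cre-negative retinas where the second probe was read. Second probes gave 0.09 and 0.08 for Laptm5 and 0.05 and 0.13 for Cyba in Cre-positive and Cre-negative retinas.

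Of the activation genes, 2 of 8 rose in Cre-positive and 1 of 8 in Cre-negative retinas. Cd52, a short glycoprotein anchored on leukocytes, had -2.08, -1.90, -1.99, -1.97 and -1.31 in Cre-positive crushed retinas, against -2.48, -2.50, -2.55, -2.56 and -2.62 in Cre-positive uncrushed ones. It had -2.12, -2.17 and -2.19 in Cre-negative crushed retinas, against -2.66, -2.78, -2.79 and -2.64 in Cre-negative uncrushed ones. The groups were far apart relative to their spread in both genotypes. The change was 0.69 ± 0.10 (log2, SE, 1.61-fold, limma adjusted p 0.0021) in Cre-positive and 0.56 ± 0.12 (log2, SE, 1.47-fold, limma adjusted p 0.021) in Cre-negative retinas. Trem2, the lipid-sensing receptor that signals through DAP12, had -2.64, -2.40, -2.27, -2.31 and -1.97 in Cre-positive crushed retinas, against -2.79, -2.97, -2.87, -3.00 and -2.79 in Cre-positive uncrushed ones. Trem2 had -2.60, -2.65 and -2.76 in Cre-negative crushed retinas, against -3.03, -3.05, -3.00 and -2.99 in Cre-negative uncrushed ones. No crushed array reached down to the uncrushed arrays of its genotype. The change was 0.57 ± 0.09 (log2, SE, 1.48-fold, limma adjusted p 0.0029) in Cre-positive retinas, and 0.35 ± 0.11 (limma adjusted p 0.12) in Cre-negative retinas was not called.

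The galectin gene Lgals3, a gene of phagocytes that the cornea also expresses, had -3.99, -3.94, -4.01, -3.89 and -3.57 in Cre-positive crushed retinas, against -4.24, -4.06, -4.04, -3.23 and -4.18 in Cre-positive uncrushed ones. It had -3.73, -3.69 and -3.82 in Cre-negative crushed retinas, against -4.15, -4.25, -4.17 and -4.08 in Cre-negative uncrushed ones. The Cre-positive uncrushed array at the top is replicate 4, the one with the most cornea transcripts, and the Cre-negative groups did not overlap. limma gave 0.07 ± 0.14 (limma adjusted p 0.9) in Cre-positive and 0.42 ± 0.17 (limma adjusted p 0.28) in Cre-negative retinas. Without that array, a choice made after seeing the data, limma gave 0.25 (adjusted p 0.27) in Cre-positive retinas, where the groups then did not overlap, and called the unaltered difference of 0.42 in Cre-negative retinas (adjusted p 0.017). The 5 other tested activation genes were Cd14, the co-receptor for lipopolysaccharide, the lysozyme gene Lyz2, the invariant chain gene Cd74, the G-CSF receptor gene Csf3r and the integrin gene Itgax (CD11c). None was called, with estimates from -0.15 for Csf3r to 0.12 for Lyz2 in Cre-positive retinas and from -0.22 for Csf3r to 0.20 for Itgax in Cre-negative retinas. Lyz2 has a near-identical copy, Lyz1, and was above background on 4 of 5, 1 of 5, 1 of 3 and 2 of 4 arrays of the Cre-positive crushed, Cre-positive uncrushed, Cre-negative crushed and Cre-negative uncrushed groups. Itgax was above background on 3, 0, 1 and 1 arrays of the same groups. The only Csf3r probe was very bright, at 302714 to 490342 units, and whether it measures Csf3r was not tested.

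**Figure D3:**
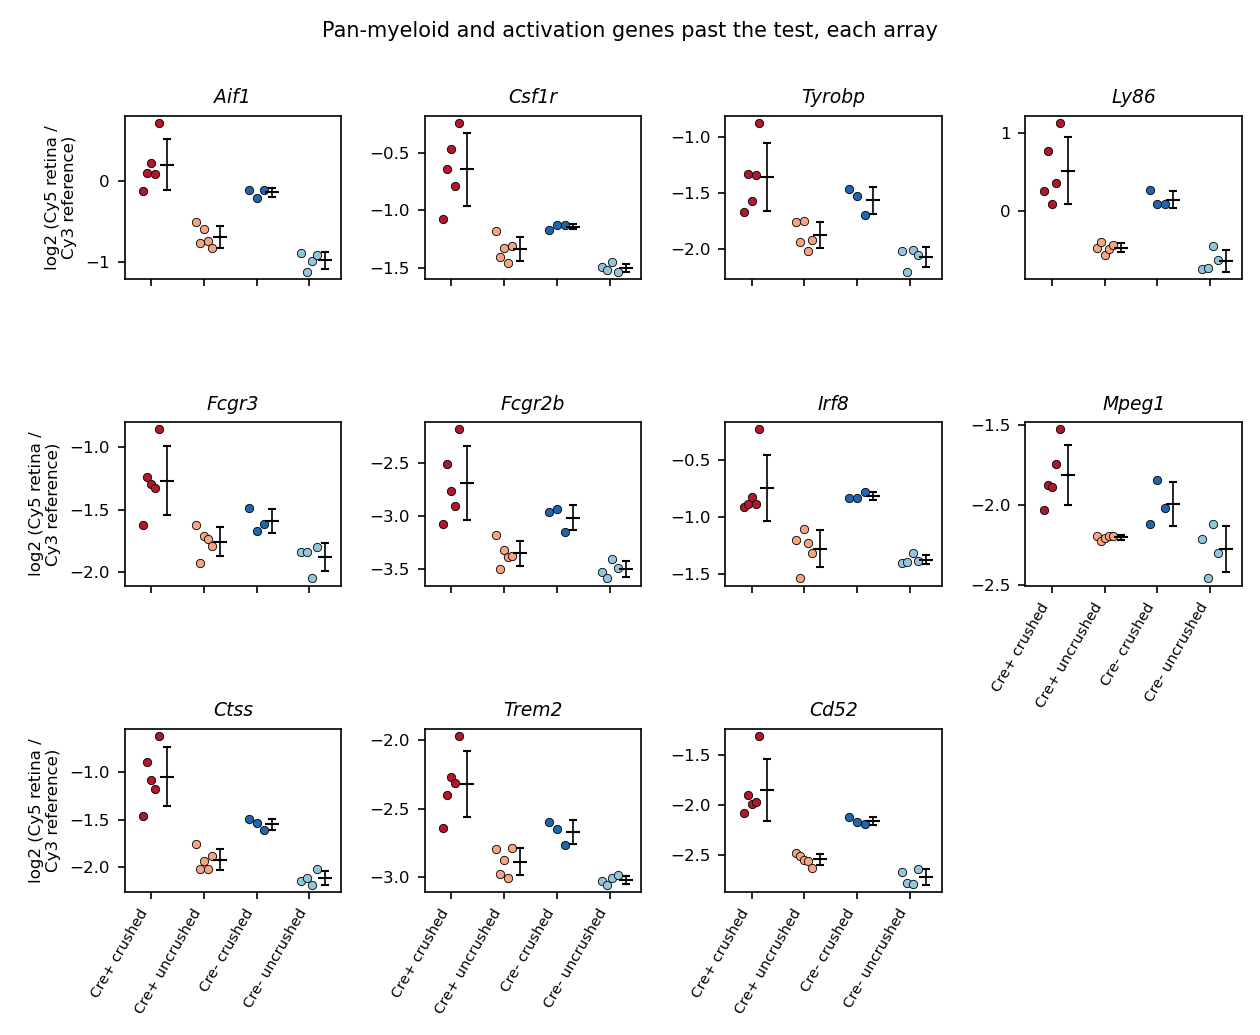
Log2 ratio of Cy5 over Cy3 on each array, with the group mean and SD, for the 11 pan-myeloid and activation genes called in at least 1 genotype, with groups in the order Cre-positive crushed, Cre-positive uncrushed, Cre-negative crushed and Cre-negative uncrushed. Crushed arrays lie above uncrushed arrays of the same genotype, with Fcgr3 in Cre-positive retinas as the exception, and Cre-positive crushed replicate 5 is often at the top.

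Homeostatic and activation genes were then compared as groups over the 4 groups of retinas. In Cre-positive retinas the median change after crush was 0.24 over the 8 homeostatic genes, 0.49 over the 15 pan-myeloid genes and 0.09 over the 8 activation genes. In Cre-negative retinas these medians were 0.26, 0.29 and 0.15. The activation median minus the homeostatic median was therefore -0.152 in Cre-positive and -0.11 in Cre-negative retinas. Within each class the genes differed far more than the class medians did, with homeostatic changes of 0.03 to 0.74 and activation changes of -0.15 to 0.69 in Cre-positive retinas. In Cre-negative retinas they ran from -0.04 to 0.59 and from -0.22 to 0.56. Moving Trem2 and Cd68 to the pan-myeloid class and Aif1 and Ctss to the activation class gave -0.14 in Cre-positive and -0.056 in Cre-negative retinas. Reading Siglech and Itgam from their second probe and leaving out Csf3r, a choice made after seeing the data, gave -0.14 and -0.056 as well.

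To follow the classes on single arrays, each gene's level was set against its mean in Cre-negative uncrushed retinas, and the median was taken over each class. The homeostatic median lay between 0.08 and 0.41 in Cre-positive crushed retinas, against 0.02 and 0.13 in Cre-positive uncrushed ones. In Cre-negative crushed retinas it lay between 0.22 and 0.31, against -0.05 and 0.09 in uncrushed ones. The activation median lay between 0.10 and 0.36 in Cre-positive crushed retinas, against 0.00 and 0.10 in Cre-positive uncrushed ones. In Cre-negative crushed retinas it lay between 0.12 and 0.26, against -0.08 and 0.11 in uncrushed ones. In Cre-positive retinas the homeostatic medians overlapped and the activation medians came close without overlapping, at 0.105 for the lowest crushed and 0.098 for the highest uncrushed array, and in Cre-negative retinas neither class overlapped. Pan-myeloid medians reached from 0.27 to 1.02 in Cre-positive crushed retinas, against 0.09 to 0.26 in Cre-positive uncrushed ones, and from 0.27 to 0.37 in Cre-negative crushed retinas, against -0.04 to 0.06 in Cre-negative uncrushed ones. The 1.02 belongs to Cre-positive crushed replicate 5, the array with the most lens transcripts, where 26 of 31 genes were above their own group's mean. In replicate 1 of that group 3 of 31 were.

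The activation minus homeostatic difference on single arrays averaged -0.09 ± 0.12 in Cre-positive crushed and 0.01 ± 0.05 in Cre-positive uncrushed retinas (SD, n = 5 each). It averaged -0.08 ± 0.05 in Cre-negative crushed retinas (n = 3) and 0.02 ± 0.11 in Cre-negative uncrushed retinas (n = 4). Its range of -0.24 to 0.04 in Cre-positive crushed retinas overlapped that of -0.05 to 0.07 in Cre-positive uncrushed ones. In Cre-negative retinas -0.13 to -0.04 likewise overlapped -0.08 to 0.15. The difference between the classes was thus of the size of the spread between arrays, and no test was made on it because the genes were listed with earlier results known.

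**Figure D4:**
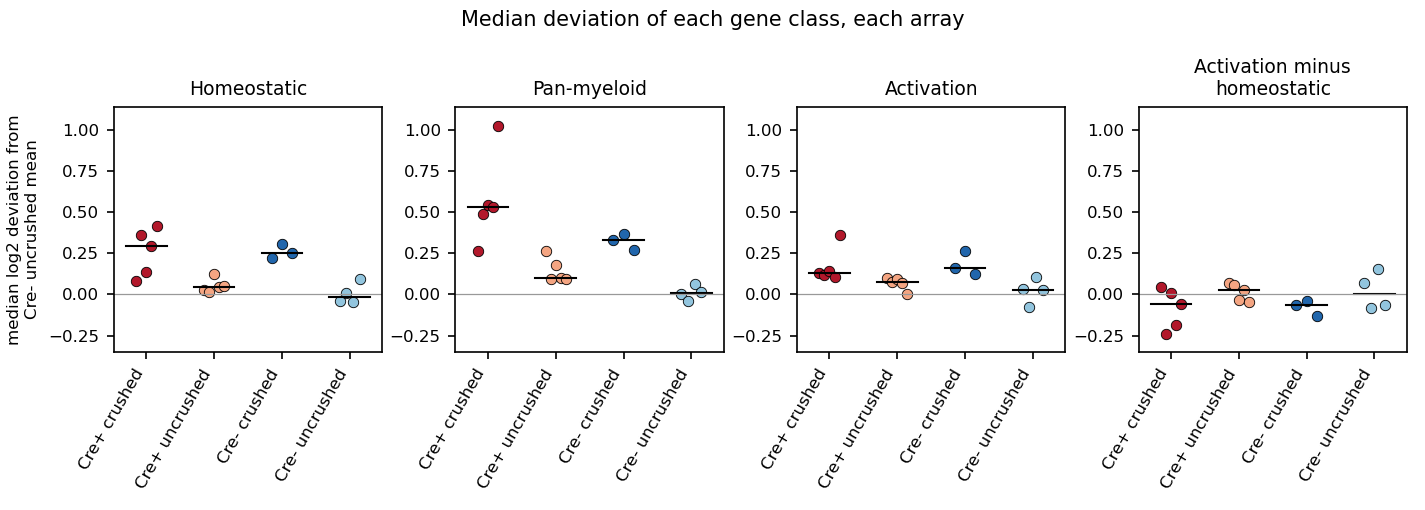
Median deviation from the Cre-negative uncrushed mean (log2) of the homeostatic, pan-myeloid and activation genes on each array, and the activation minus homeostatic difference, by group, with bars at the group median. Crushed groups have the higher median in each class, most for pan-myeloid genes, while the difference between classes stays near 0 with overlapping groups.

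Whether the crush response differed between genotypes was tested by the interaction of Cre and crush. For 0 of the 31 genes did the interaction pass in limma, where 0.135% of all genes had a called positive and 0.283% a called negative interaction. An unadjusted p under 0.05 was reached by 0 of 31, beside 8.39% of all genes. The lowest adjusted p was 0.62, for Csf1r, with an interaction of 0.34 and a 95% interval from -0.02 to 0.69. That value comes from the brightest of 3 Csf1r probes, and the other probes gave interactions of -0.08 and -0.007. The interval was -0.05 to 0.67 for Ctss, -0.32 to 0.42 for Aif1 and -0.43 to 0.08 for Tmem119. The 13 calls in one genotype and 6 in the other are therefore not shown to differ, and the intervals leave room for sizeable differences in either direction. In the same fit the ganglion cell transcription factor gene Pou4f1 had a difference of -0.13 in Cre-positive and fell by 1.04 in Cre-negative retinas (limma interaction adjusted p 0.0031).

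Among uncrushed retinas, Cre-positive against Cre-negative, limma called 0 of 31 genes, where 0.0119% of all genes were called higher and 0% lower. Unadjusted p was under 0.05 for 2 of them, Aif1 with 0.29 and Fcer1g with 0.17, or 6.45%, beside 5.61% of all genes. Estimates were positive for 26 of 31 genes. Among crushed retinas 0 of 31 passed as well, where 0.633% of all genes were called higher and 0.557% lower, and 9 of 31 had an unadjusted p under 0.05, or 29%, beside 13.9% of all genes. All 9 were higher in Cre-positive retinas. The nearest were Csf1r with 0.50 (limma adjusted p 0.057), Ctss with 0.50 (limma adjusted p 0.058) and Trem2 with 0.35 (limma adjusted p 0.11). Csf1r, Ctss and Cd52 were the genes whose Cre-positive crushed arrays all lay above the Cre-negative crushed ones, where 5.87% of all genes did so. Without Cre-positive crushed replicate 1, limma called Csf1r, Ctss and Trem2, and with slide as a random block and all arrays kept it called Csf1r. In the other 32 of 34 alternatives, among them the fit without the lens-rich Cre-positive crushed replicate 5, it called 0. The Csf1r values are from the brightest of its probes alone. Summed pigment epithelium markers also differed between these groups, at 38026 to 96282 intensity units in Cre-positive crushed and 29823 to 36720 in Cre-negative crushed retinas, and their part in the result was not tested.

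The crush response was also read within slides, since 4 slides held Cre-positive pairs and 3 held Cre-negative pairs. All 13 called genes were higher in the crushed retina on 4 of 4 slides and on 3 of 3 slides. These genes were called on the same arrays, so that count adds nothing to their calls. Over the 31 tested genes, called or not, 21 were higher on all 4 Cre-positive slides and 23 on all 3 Cre-negative slides, where 13.3% and 20.8% of all genes were. The crushed minus uncrushed difference of Aif1 was 0.64 to 1.22 over the Cre-positive and 0.78 to 1.01 over the Cre-negative slides. For Ctss it was 0.56 to 1.15 and 0.51 to 0.65, for Tmem119 0.25 to 0.65 and 0.47 to 0.57, for Cx3cr1 0.60 to 0.80 and 0.50 to 0.63, and for Trem2 0.33 to 0.82 and 0.29 to 0.39. The spread between slides was wide for Ly86, at 0.65 to 1.60 in Cre-positive retinas. By contrast P2ry12 was higher in the crushed retina on 1 of 4 and 2 of 3 slides, and Itgam on 2 of 4 and 0 of 3.

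**Figure D5:**
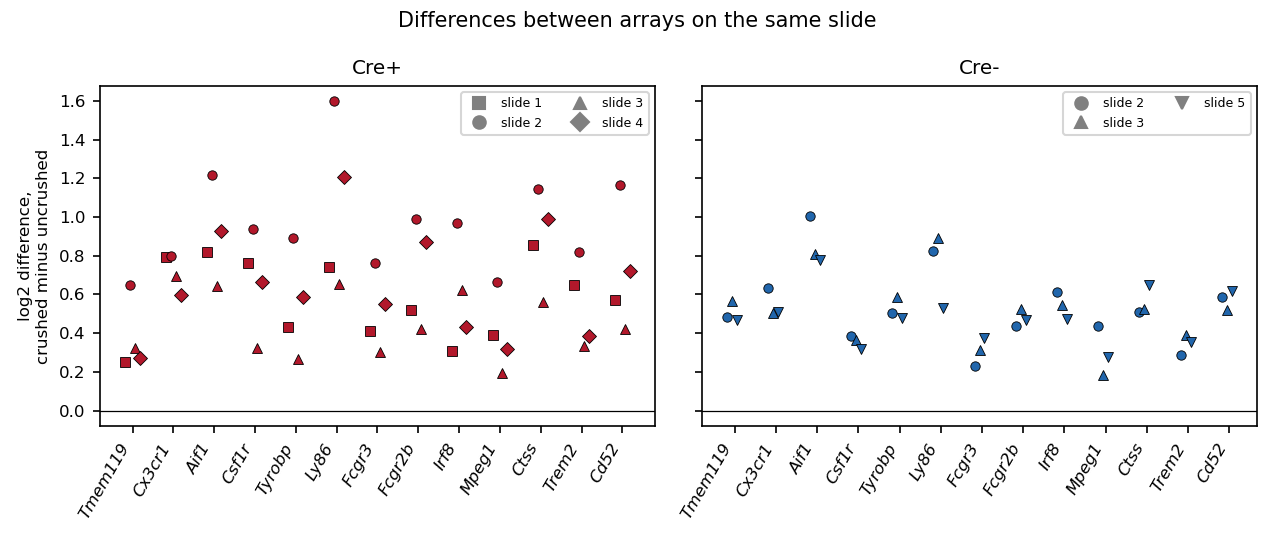
Crushed minus uncrushed log2 ratio on each slide for the 13 called genes, with Cre-positive pairs on slides 1 to 4 and Cre-negative pairs on slides 2, 3 and 5. All points lie above 0.

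Without Cre-positive crushed replicate 5, the lens-rich array, 10 of 31 genes were called in Cre-positive and 10 of 31 in Cre-negative retinas. The reported fit called 13 of 31 and 0.776% of all genes in Cre-positive retinas. The share of all genes called in Cre-positive retinas without this array is not given here. In Cre-negative retinas 2.7% of all genes were then called in either direction, beside 2.18% in the reported fit. With the lens-rich array and the cornea-rich Cre-positive uncrushed replicate 4 both left out, 8 were called in Cre-positive retinas, namely Aif1, Csf1r, Ly86, Fcgr2b, Irf8, Ctss, Trem2 and Cd52. Of all genes 0.477% were then called, beside 0.776% in the reported fit. Without Cre-positive uncrushed replicate 2, 4 or 5 the counts in Cre-positive retinas were 7, 8 and 7, where 0.446%, 0.517% and 0.474% of all genes were called. In Cre-negative retinas Tmem119 and Aif1 were called whichever array was left out, and 2 or 3 genes in all remained without any 1 of the 3 crushed arrays or without uncrushed replicate 1 or 2. In the fits with 2 or 3 genes, between 1.31% and 1.66% of all genes were called.

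Other genes used to describe these cells were read from wider lists. RNA of whole retinas does not show which cells express them. Of 18 further homeostatic genes 7 rose in Cre-positive and 2 in Cre-negative retinas, with medians of 0.12 and 0.09. Of all genes 0.688% and 1.36% rose. Estimates were positive for 16 and negative for 2 of the 18 in Cre-positive retinas, down to -0.10. In Cre-negative retinas 10 were positive and 8 negative, down to -0.25. Pros1, a ligand of receptors for the uptake of dying cells, changed by 0.58 ± 0.08 (limma adjusted p 0.0016) in Cre-positive and 0.72 ± 0.10 (limma adjusted p 0.00031) in Cre-negative retinas. Slco2b1, an organic anion transporter, rose in Cre-positive retinas with 0.64 ± 0.09 (limma adjusted p 0.00083), and had 0.31 ± 0.10 (limma adjusted p 0.16) in Cre-negative ones. Adora3, an adenosine receptor, rose in Cre-positive retinas with 0.50 ± 0.07 (limma adjusted p 0.0012), and had 0.14 ± 0.08 (limma adjusted p 0.52) in Cre-negative ones. Of 20 disease-associated microglial genes 1 rose in Cre-positive and 3 in Cre-negative retinas, with a median of 0.16 in both. Here 15 estimates were positive and 5 negative in Cre-positive retinas, down to -0.09. For Cre-negative retinas 18 were positive and 2 negative, down to -0.15. The tetraspanin gene Cd9 rose by 0.66 ± 0.11 (limma adjusted p 0.0066) in Cre-positive and by 0.68 ± 0.14 (limma adjusted p 0.0088) in Cre-negative retinas. The chemokine gene Ccl4 had 0.57 ± 0.13 (limma adjusted p 0.053) in Cre-positive retinas and rose by 0.90 ± 0.16 (limma adjusted p 0.003) in Cre-negative ones, and the lysosomal tetraspanin gene Cd63 had 0.37 ± 0.09 (limma adjusted p 0.069) in Cre-positive retinas and rose by 0.48 ± 0.11 (limma adjusted p 0.023) in Cre-negative ones. Ctsl, another lysosomal protease, had 0.20 ± 0.05 (limma adjusted p 0.086) in Cre-positive and 0.17 ± 0.06 (limma adjusted p 0.2) in Cre-negative retinas. Clec7a, a further gene of that list, had no probe paired with it.

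Among ligands and chemokines that act on these cells, 2 of 13 rose in Cre-positive and 3 of 13 in Cre-negative retinas. Of all genes 0.688% and 1.36% rose. In each genotype 9 of the 13 estimates were positive and 4 negative, down to -0.11 in Cre-positive and -0.13 in Cre-negative retinas. Cxcl10, an interferon-induced chemokine, had 0.47, -1.25, -1.13, -1.74 and -0.33 in Cre-positive crushed retinas, against -2.93, -3.48, -2.93, -3.40 and -3.34 in Cre-positive uncrushed ones. It had -0.82, -1.43 and -1.06 in Cre-negative crushed retinas, against -3.43, -3.63, -3.33 and -3.37 in Cre-negative uncrushed ones. Crushed arrays were far above all uncrushed ones, and replicate 1 was the highest of the Cre-positive crushed arrays. The change was 2.42 ± 0.29 (limma adjusted p 3e-04) in Cre-positive and 2.34 ± 0.35 (limma adjusted p 0.00055) in Cre-negative retinas. Ccl12, a ligand of the monocyte receptor CCR2, changed by 1.30 ± 0.21 (limma adjusted p 0.0036) in Cre-positive and 1.56 ± 0.25 (limma adjusted p 0.0012) in Cre-negative retinas. Csf1, whose product is a ligand of the Csf1r receptor, had 0.20 ± 0.05 (limma adjusted p 0.095) in Cre-positive retinas and rose by 0.30 ± 0.06 (limma adjusted p 0.01) in Cre-negative ones. Ccl5, a T cell and monocyte chemokine, had 0.37 ± 0.09 (limma adjusted p 0.067) in Cre-positive and 0.24 ± 0.11 (limma adjusted p 0.35) in Cre-negative retinas. Csf2 and Csf3 were above background on 0 arrays. Of 10 antigen presentation genes 2 rose in Cre-positive and 0 in Cre-negative retinas by limma. An unadjusted p under 0.05 was found for 6 and 5 of them, beside 9.55% and 13.4% of all genes. Their estimates were positive for 8 and negative for 2 in Cre-positive retinas, down to -0.04. For Cre-negative retinas 7 were positive and 3 negative, down to -0.20. The class I gene H2-K1 rose by 0.56 ± 0.10 (limma adjusted p 0.0099) in Cre-positive retinas and had 0.37 ± 0.12 (limma adjusted p 0.15) in Cre-negative ones. Its light chain gene B2m rose by 0.33 ± 0.07 (limma adjusted p 0.037) in Cre-positive retinas and had 0.20 ± 0.09 (limma adjusted p 0.3) in Cre-negative ones.

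Markers of other cells that could carry the listed genes were read in the same fits. Of 10 tested monocyte and neutrophil markers 0 were called by limma in either genotype. Over all genes 0.776% were called in Cre-positive and 2.18% in Cre-negative retinas. An unadjusted p under 0.05 was found for 1 marker in each genotype, beside 9.55% and 13.4% of all genes. Estimates were positive for 5 and negative for 5 of the 10 in Cre-positive retinas, from -0.17 to 0.41. For Cre-negative retinas 9 were positive and 1 negative, from -0.05 to 0.46. Ccr2, Cxcr2 and Ngp were above background on 0 arrays, and Ly6c2 and Ly6g had no probe paired with them. The summed Cy5 signal of the 13 monocyte and neutrophil markers on the array lay between 16818 and 29770 units in Cre-positive crushed retinas. In Cre-positive uncrushed ones it lay between 13470 and 23912, and its highest value was again that of crushed replicate 5. It lay between 15518 and 20328 in Cre-negative crushed retinas, against 15612 and 17386 in uncrushed ones. Of 9 tested markers of border macrophages 0 were called by limma, and Cd163 was above background on 0 arrays. Estimates were positive for 5 and negative for 4 of the 9 in Cre-positive retinas, down to -0.14. For Cre-negative retinas 6 were positive and 3 negative, down to -0.18. An unadjusted p under 0.05 was found for 4 of 9 in Cre-positive retinas, beside 9.55% of all genes. In Cre-negative retinas it was found for 2 of 9, beside 13.4% of all genes. F13a1, a coagulation factor of such macrophages, had 0.50 ± 0.13 (limma adjusted p 0.095) in Cre-positive and 0.28 ± 0.16 (limma adjusted p 0.48) in Cre-negative retinas. The mannose receptor gene Mrc1 had 0.20 ± 0.07 (limma adjusted p 0.3) in Cre-positive and 0.29 ± 0.08 (limma adjusted p 0.075) in Cre-negative retinas. The summed signals of the 10 border macrophage markers on the array overlapped in all groups. They were 4633 to 5701 units in Cre-positive crushed and 4451 to 5305 in Cre-positive uncrushed retinas. In Cre-negative retinas they were 4484 to 5512 in crushed and 4220 to 5435 in uncrushed ones. Of 11 lymphocyte markers 0 rose by limma, with 0 at an unadjusted p under 0.05 in Cre-positive and 2 in Cre-negative retinas, and Klrb1c, a natural killer cell receptor gene, had 0.07 ± 0.06 (limma adjusted p 0.74) in Cre-positive retinas and fell in Cre-negative ones with -0.33 ± 0.07 (limma adjusted p 0.022).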

How the data were processed

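Each array was a 2-colour Agilent mouse array of 1 whole retina, with retinal RNA in Cy5 and reference RNA in Cy3, per the labels. The deposited scanner files give spot and local background intensity in both dyes, written by Feature Extraction 10.7.3.1 per the file headers, with no normalization of those columns. The files hold the median and not the mean spot intensity, so the median was used where the mean had been planned. The authors' deposited value table, for which the submitters' processing notes name limma, was taken to hold log2 ratios of Cy5 over Cy3, because it correlated with the ratios computed here at r of 0.999 to 1 across probes and at 0.95 to 0.999 after each probe's mean was removed. Its column medians were 0.015 to 0.024 and it served as an alternative only. Its background correction is not given in the sources used here.

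Intensities were corrected by normexp (offset 50) and normalized by loess within each array in limma 3.58.1 under R 4.3.3, with version 1.17.8 of data.table, Python 3.11.15 and matplotlib 3.10.9. The offset pulls ratios of dim probes toward 0. Spots of a probe were averaged, and 26581 of 39429 probes were paired with 20144 symbols by RefSeq accession, while 12848 had none. Probes above background in Cy5 on at least 3 of 17 arrays were kept, and the brightest probe stood for its gene, which gave 25131 features, 16793 of them genes with a symbol, and 49 missing values. A model with 4 group means had 13 residual and 4.49 prior degrees of freedom, and 5 contrasts were tested two-sided, adjusted over all genes. The median change over all genes was 0.00046 and 0.0015 for crush in Cre-positive and Cre-negative retinas, 0.0026 for the interaction, and 0.0073 and 0.0088 for Cre in uncrushed and crushed retinas. Only the limma fit was tested on simulated data, with log2 ratios drawn independently for each gene and array. Background correction, normalization, probe pairing and filters were not tested in that way.

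The genes, classes, other lists and tests were chosen with earlier results of these data known. Values per array are given for all homeostatic genes and all called members, others by range, and for each other list up to 4 genes with the smallest p, or those called. Alternatives covered background correction, normalization, filters, probes, slide, array weights, the value table and each array left out. Promoters are from RefSeq (GRCm38.p6), and no probe positions are given because the array header names another build. The number of arrays limits the precision.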

Additional observations from a re-analysis of the deposited data

Results flagged for a closer look

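In 8 of 93 groups of 4 or 5 arrays the highest or lowest array stood apart from the rest, by a gap to its nearest neighbour that was a large share of the group's whole range. Chance alone gives such a gap in about 1 in 20 groups. Of the 8 arrays, 3 are Cre-positive crushed replicate 5, the array with the most lens transcripts, which stood high for Irf8 at -0.24 (nearest -0.83, gap 0.875 of the range), for Cd52 at -1.31 (nearest -1.90, 0.762) and for Lgals3 at -3.57 (nearest -3.89, 0.719). Cre-positive uncrushed replicate 4, the array with the most cornea transcripts, stood high for Lgals3 at -3.23 (nearest -4.04, 0.801). Cre-positive crushed replicate 3 was high for Ptprc at -2.24 (nearest -3.09, 0.765), and Cre-positive uncrushed replicate 3 was high for P2ry12 at 0.89 (nearest 0.64, 0.71). Cre-negative uncrushed replicate 3 was low for Fcgr3 at -2.05 (nearest -1.84, 0.834), and Cre-negative uncrushed replicate 2 was low for Cyba at -3.35 (nearest -3.09, 0.872).

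On the Cre-negative array with disagreeing labels, which entered no comparison, 24 of the 31 tested genes were above every Cre-negative uncrushed array, as were 24.9% of all genes. All 6 genes called after crush in Cre-negative retinas were among the 24. Its class medians, as deviations from the Cre-negative uncrushed mean, were 0.56 for homeostatic, 0.51 for pan-myeloid and 0.26 for activation genes. It was hybridised at position 4 of slide 5, an even position like those of the crushed arrays. Neither these values nor its position was used to decide its group.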

How the results depend on the processing

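In all, 36 alternatives were run, 17 planned ones, 17 that each left out 1 array, and 2 chosen after seeing the data, and no change of a called gene turned its sign. The count of called genes in Cre-positive retinas, 13, became 0 with the array of disagreeing labels counted as Cre-negative uncrushed, 4 with only the groups of the contrast in the fit (Aif1, Ly86, Ctss and Cd52) and 8 with the lens-rich and cornea-rich arrays both left out, where 0.0398%, 0.207% and 0.477% of all genes were called in either direction, beside 0.776% with all arrays, and 7 to 14 with 1 array left out. The count in Cre-negative retinas, 6, became 12 with array weights, 0 and 11 with the array of disagreeing labels counted as uncrushed or crushed, 14 with only the groups of the contrast, where 4.72%, 0.286%, 2.95% and 3.04% of all genes were called in the order given, beside 2.18% in the reported fit, and 2 to 10 with 1 array left out. The arrays that moved it most were Cre-negative crushed replicates 1, 2 and 3, with 2, 3 and 2 genes without them, Cre-negative uncrushed replicates 1 and 2, with 3 and 2, and Cre-positive crushed replicate 5, with 10. For the Cre-positive count they were Cre-positive uncrushed replicates 2, 4 and 5, with 7, 8 and 7. Aif1, Ly86, Ctss and Cd52 in Cre-positive and Tmem119 and Aif1 in Cre-negative retinas were called in 33 of 34 alternatives. The interaction and the Cre effect in uncrushed retinas had 0 calls in all 34. The Cre effect in crushed retinas had 1 call, Csf1r, with slide as a random block (estimated correlation 0.065) and 0 to 3 with 1 array left out, the 3 (Csf1r, Ctss and Trem2) without Cre-positive crushed replicate 1.

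The activation minus homeostatic difference stayed below 0 after crush, at -0.223 to -0.055 in Cre-positive and -0.204 to -0.039 in Cre-negative retinas, and its main Cre-positive value of -0.152 became -0.055 with the Cy5 channel alone. In the interaction, 0.04, it became 0.181 with Feature Extraction's processed signals, 0.175 with Cy5 alone and -0.064 with the array of disagreeing labels as uncrushed. In the Cre effect in uncrushed retinas, 0.025, it became -0.078 with the processed signals. In the Cre effect in crushed retinas, -0.016, it became 0.092 with the processed signals, 0.175 with Cy5 alone, 0.101 with slide as a fixed block and 0.081 with the array of disagreeing labels as crushed. With 1 array left out it was -0.188 to -0.111 for crush in Cre-positive and -0.127 to -0.081 for crush in Cre-negative retinas, -0.032 to 0.091 for the interaction, -0.027 to 0.074 for Cre in uncrushed and -0.053 to 0.069 for Cre in crushed retinas. The cause of these shifts was not tested.

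No paired analysis was possible because the labels give no replicate numbers and do not tie crushed to uncrushed retinas of an animal. The 3 Cre-negative crushed arrays and the dim probes of P2ry13, Lyz2, Itgax, Cybb and C5ar1 limit what is detectable.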

Other observations

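A few genes near these cells moved in contrasts not described above. Mef2c, a transcription factor of microglia and of neurons, was higher in Cre-positive than in Cre-negative crushed retinas by 0.43 (limma adjusted p 0.027), and so was the class II gene H2-Ab1, by 0.51 (limma adjusted p 0.048). Among the remaining homeostatic genes, P2ry6, a receptor for uridine nucleotides, rose after crush by 0.60 in Cre-positive and 0.54 in Cre-negative retinas (limma adjusted p 0.01 and 0.033). Selplg, a selectin ligand, rose by 0.50 (limma adjusted p 0.013) and Sparc, a secreted matrix protein, by 0.36 (limma adjusted p 0.04) in Cre-positive retinas, and both were not called in Cre-negative ones, where the estimates were 0.21 and 0.23. The fractalkine gene Cx3cl1 and the CSF1R ligand gene Il34, which retinal neurons express, were not called, with 0.01 and -0.10 in Cre-positive and -0.09 and -0.07 in Cre-negative retinas. These genes were named after their values were seen.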
